A study of Homo sapiens with 4 samples.

Results

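Keratins are the intermediate filament proteins of epithelial cells, and 10 keratin genes were described here: KRT7, KRT8, KRT10, KRT15, KRT17, KRT18, KRT19, KRT20, KRT23 and KRT80. They were found by name among the 43296 gene names of the deposited table. The rule itself uses no measured value, but the names were picked with earlier results of these data known, and they hold nearly all keratin counts. The data were single-cell RNA sequencing counts, made with the 5′ chemistry of 10x Genomics, from H1299, a lung carcinoma line of human origin, and HCT116, a colorectal carcinoma line of human origin. Each line was grown with DMSO, the solvent, or with DAC+SB, which combined 500 nM DAC (decitabine, an inhibitor of DNA methyltransferases) for 72 h with 500 nM SB939 (an inhibitor of histone deacetylases) for 18 h. Compound medium was renewed every 24 h, and all cells were at passage 5 to 10. There were 4 libraries, 1 for each line and treatment, so that cells are not replicates, no difference below has a replicate check, and no test or p-value is given.

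A keratin filament is built from pairs of 1 type I and 1 type II chain, and a chain without a partner is usually degraded. KRT8 (type II) and KRT18 (type I) are the founding pair of simple, single-layered epithelia such as those of lung and gut. KRT7 (type II) and KRT19 (type I) are further simple-epithelial chains, with KRT7 common in lung and largely absent from colon. KRT20 (type I) marks differentiated gut epithelium. KRT15 and KRT17 (type I) belong to basal and stressed stratified epithelium, KRT10 (type I) to the differentiated layers of the epidermis, and KRT23 (type I) and KRT80 (type II) are less studied chains that have been reported in several carcinomas.

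The H1299 libraries held 3578 cells with DMSO and 3726 with DAC+SB, and those of HCT116 held 3658 and 4327. Their gene plus transposable element (TE) counts summed to 64524196, 62428673, 62639099 and 38927267 in that order, of which TE counts were 0.199%, 3.09%, 0.319% and 5.56%. The HCT116 DAC+SB library was the shallowest per cell (median 8449 counts, against 15784.5 to 17369.5 in the others) and had the most mitochondrial counts (median 18.6%, against 8.33% to 15.8%). Values without the cells richest in mitochondrial counts, without the deepest cells, with a denominator free of mitochondrial genes, and with thinned counts are given further on. Cell barcodes shared between libraries numbered 131 of 15158. Levels below are gene counts per 1000000 gene plus TE counts (CPM), and values in parentheses after a level, ratio or share are 95% intervals that cover counting error only. The line labels were checked on genes that are not keratins. EPCAM, an epithelial surface protein, was at 80.7 and 45.2 CPM in HCT116 (DMSO first) and at 0.0155 and 4.47 in H1299, and VIM, the mesenchymal filament protein, at 2282 and 1151 CPM in H1299 and at 47.0 and 265 in HCT116. The 8 H1299 markers summed to 3389 and 1362 CPM in H1299 against 104 and 306 in HCT116. VIM is 1 of these 8 and held most of each H1299 sum and of the treated HCT116 sum. EPCAM was chosen from a list of HCT116 markers. With DAC+SB, CDH1, CDX2, VIL1, ELF3 and CLDN4 of that list were also higher in HCT116. ESRP1 (2.92 against 2.41 CPM) and LGALS4 (1.60 against 1.08) were higher in H1299.

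In GENCODE v29 on GRCh38, type II KRT80 (52168996 to 52192000), KRT7 (52232520 to 52252186) and KRT8 (52897187 to 52949954) lie on chromosome 12, together with type I KRT18 (52948871 to 52952901). The other 6 type I genes lie on chromosome 17: KRT10 (40818117 to 40822595), KRT20 (40875941 to 40885227), KRT23 (40922696 to 40937634), KRT15 (41513743 to 41522529), KRT19 (41523617 to 41528308) and KRT17 (41619441 to 41624842). KRT15 and KRT19 are neighbours on the minus strand, 1087 bases apart. The annotated spans of KRT8 and KRT18 overlap by 1084 bases on opposite strands, and that of KRT10 overlaps TMEM99 by 3490 bases on opposite strands. Whether the authors counted by strand is not stated in the sources used here, so reads in these overlaps cannot be assigned with certainty.

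One inhibitor acts on DNA methylation, which in human cells is placed mostly on CG dinucleotides, so the promoter windows held by the RefSeq table (GRCh38.p14, 250 bases before to 50 after 1 annotated start) are shown for the 3 members that it holds. CG dinucleotides are in capitals, and each sequence is on the gene's own strand, 5′ to 3′. The windows are chr12:52926420-52926719 for KRT8, chr17:40822565-40822864 for KRT10 and chr17:40885193-40885492 for KRT20, all on the minus strand.
KRT8: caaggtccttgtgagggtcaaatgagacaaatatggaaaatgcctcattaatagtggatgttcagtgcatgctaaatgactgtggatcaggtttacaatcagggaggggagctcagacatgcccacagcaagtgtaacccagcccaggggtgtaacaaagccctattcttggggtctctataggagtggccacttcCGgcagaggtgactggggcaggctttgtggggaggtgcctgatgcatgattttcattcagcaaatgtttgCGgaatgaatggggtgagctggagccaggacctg
KRT10: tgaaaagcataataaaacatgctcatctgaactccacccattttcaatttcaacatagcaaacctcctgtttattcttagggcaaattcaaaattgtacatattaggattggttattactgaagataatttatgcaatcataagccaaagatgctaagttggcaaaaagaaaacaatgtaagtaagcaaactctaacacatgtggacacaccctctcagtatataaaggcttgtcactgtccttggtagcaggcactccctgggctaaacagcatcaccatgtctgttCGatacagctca
KRT20: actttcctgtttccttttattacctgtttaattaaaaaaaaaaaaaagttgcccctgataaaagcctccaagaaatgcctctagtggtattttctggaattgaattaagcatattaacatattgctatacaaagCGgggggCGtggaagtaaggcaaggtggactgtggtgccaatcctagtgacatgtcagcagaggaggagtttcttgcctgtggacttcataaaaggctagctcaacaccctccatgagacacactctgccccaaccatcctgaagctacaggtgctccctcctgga

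All 3 windows are poor in CG. KRT8 and KRT20 hold 2 CG each and KRT10 holds 1, where the median over 35116 promoters is 14.0. The ratio of observed to expected CG was 0.111 for KRT8, 0.0962 for KRT10 and 0.138 for KRT20, against a median of 0.579. A lower ratio was found in 10.8%, 9.14% and 14.0% of all promoters, respectively. A search on both strands found TATAAA, the core of the TATA box, in the KRT10 window and in 11.5% of all promoters. GGGCGG, the core bound by SP1, was in none of the 3 windows and in 45.0% of all promoters, and TGANTCA, the core bound by AP-1, was in none and in 7.71%. The searched motifs do not overlap in these windows. The KRT8 window is at only 1 of the gene's annotated starts, and the promoters of the other 7 members were not analysed here.

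The first question was what combined inhibition of DNA methyltransferases and histone deacetylases did to keratin transcripts in each line. In H1299 the simple-epithelial keratins KRT8, KRT18 and KRT19 were higher with DAC+SB and the basal keratin KRT15 was lower. In HCT116 KRT8, KRT18 and KRT19 were at 181 to 229 CPM with DMSO and had small ratios. The highest ratios there were those of KRT17, KRT20, KRT23 and KRT15, from low levels. KRT18 was at 255 CPM with DMSO in H1299, above its level in HCT116, and a part of the DMSO level in the ratios was not tested. The summed level of the 10 genes went from 452 (447 to 457) to 1138 (1129 to 1146) CPM in H1299, a ratio of 2.52 (2.48 to 2.55). In HCT116 it went from 777 (771 to 784) to 1058 (1047 to 1068) CPM, a ratio of 1.36 (1.34 to 1.38). On the CPM scale the summed levels of the lines were thus closer to each other with DAC+SB than with DMSO.

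**Figure D1:**
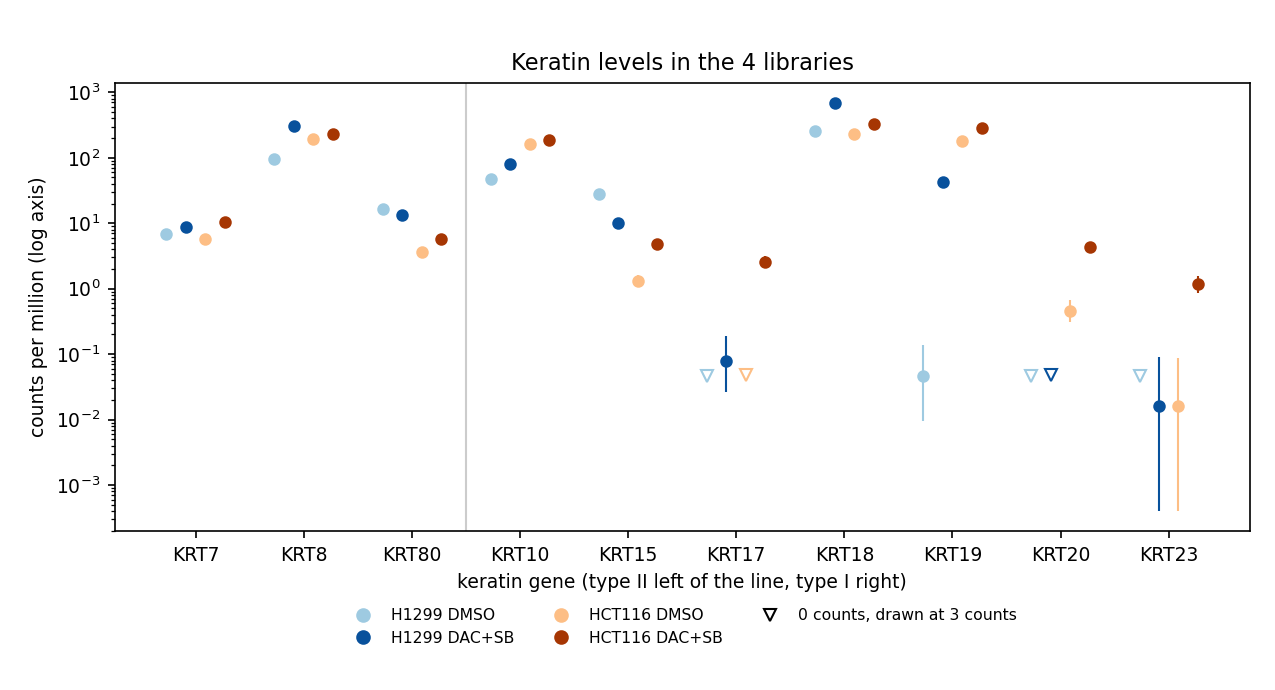
CPM (log axis) of each keratin gene in the 4 libraries, 1 library per point, with 95% Poisson intervals. Open triangles are libraries with 0 counts, drawn at the level of 3 counts. KRT19 stands at 0.0465 in H1299 DMSO and at 42.2 in H1299 DAC+SB, and KRT15 and KRT80 have both H1299 points above both HCT116 points.

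KRT8 was at 96.9 CPM with DMSO and 307 with DAC+SB in H1299, and at 192 and 229 in HCT116. The ratio of DAC+SB to DMSO was 3.17 (3.08 to 3.26) in H1299 and 1.19 (1.16 to 1.23) in HCT116. Before treatment KRT8 was higher in HCT116, and after it in H1299. KRT18, its type I partner, was at 255, 676, 229 and 325 CPM in the same order, with a ratio of 2.65 (2.60 to 2.69) in the lung line and 1.42 (1.38 to 1.45) in the colon line. The pair thus had higher ratios in H1299 than in HCT116: the H1299 minus the HCT116 log2 ratio was 1.41 (1.35 to 1.47) for KRT8 and 0.90 (0.86 to 0.95) for KRT18. KRT8 and KRT18 together held 78.0% and 86.4% of the members' counts in H1299 (DMSO first), and 54.2% and 52.4% in HCT116.

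KRT8 and KRT18 have many processed pseudogenes, to which reads could be lost or from which they could be gained. Of the pseudogenes in GENCODE v29, 50 aligned to KRT8 with a median identity of 89.0% and 67 to KRT18 with 90.9%, and the highest identities were 96.9% and 95.2%. The 35 other keratin-named features that are neither functional keratins nor members, pseudogenes included, summed to 8.94 and 8.59 CPM in H1299 and 7.87 and 8.58 in HCT116. In HCT116 384 and 92 of these 493 and 334 counts were under a name that joins KRT222 with an overlapping gene. The most counted pseudogene in H1299 was KRT8P12 on chromosome 3 (160565447 to 160569248), with 517 and 384 counts, a log2 ratio of -0.38 (-0.58 to -0.19). Its aligned part is 84.1% identical to KRT8, and in H1299 it went in the opposite direction to KRT8. In HCT116, with 34 and 39 counts and a log2 ratio of 0.88 (0.18 to 1.59), it went in the same direction.

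KRT19, the smallest keratin chain and a partner of KRT8 in simple epithelia, had 3 counts with DMSO and 2634 with DAC+SB in H1299, which is 0.0465 and 42.2 CPM. The ratio was 907 (310 to 4403), which is 9.83 as a log2 value. In HCT116 it had 11360 and 11177 counts, or 181 and 287 CPM, a ratio of 1.58 (1.54 to 1.63). Treated H1299 cells had 6.81-fold (6.52 to 7.10) less KRT19 than treated HCT116 cells, where the difference with DMSO had been 3901-fold (1334 to 18917). Its neighbour KRT15 went the other way in the same H1299 cells. Of the H1299 libraries, KRT19 feature 1 (features are described below) was listed only in the treated one. Without it the H1299 change was from 3 to 1458 counts, and the log2 ratio 8.97. In HCT116 with DMSO feature 1 held 6692 of the 11360 KRT19 counts. The ratio of 907, the 3901-fold difference and their intervals thus hold only if feature 1 had no unlisted counts in H1299 with DMSO.

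KRT7, the simple-epithelial chain common in lung, was at 6.94 and 8.79 CPM in H1299 and at 5.83 and 10.5 in HCT116. Its ratios were 1.27 (1.12 to 1.44) and 1.81 (1.57 to 2.09). With DMSO the lung line was 1.19-fold higher than the colon line. KRT20, the gut keratin, was not detected in H1299, with 0 counts in both libraries, where 3 counts would be 0.0465 and 0.0481 CPM. In HCT116 it had 29 counts with DMSO and 169 with DAC+SB, or 0.463 and 4.34 CPM, a ratio of 9.38 (6.30 to 14.4). KRT23 had 0 and 1 counts in H1299 and 1 and 46 in HCT116, a ratio in HCT116 of 74.0 (12.6 to 2986), or 6.21 as a log2 value, that rests on 1 DMSO count. Without the 5% of cells with most counts it had 0 and 41 counts, and the log2 ratio was at least 4.48 on the floor of 3 counts. As a mean over cells the log2 value was 7.64.

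KRT15, a basal-layer keratin, was at 28.4 CPM with DMSO and 10.1 with DAC+SB in H1299, and at 1.33 and 4.80 in HCT116. It was lower with treatment in H1299, with a ratio of 0.357 (0.325 to 0.390), and higher in HCT116, with 3.63 (2.79 to 4.75). The H1299 minus the HCT116 log2 ratio was -3.35 (-3.74 to -2.95). With DMSO KRT15 had been 21.5-fold higher in H1299, and with DAC+SB it was 2.11-fold higher.

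KRT17, a keratin of basal and stressed epithelium, had 0 counts in both DMSO libraries, 5 in H1299 DAC+SB and 100 in HCT116 DAC+SB. In HCT116 it was at least 53.6-fold higher with DAC+SB when DMSO is set to 3 counts for the library, a log2 ratio of at least 5.75, if no unlisted feature of it had counts there. In H1299 the same floor gave at least 1.72-fold, on the same condition. KRT17 feature 1 held 52 of the 100 counts and was listed in this library only, so that without it 48 counts and a bound of 4.69 on the log2 scale remained.

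KRT10, the epidermal keratin, was at 47.6 and 80.2 CPM in H1299 and at 163 and 187 in HCT116, with ratios of 1.69 (1.61 to 1.76) and 1.15 (1.11 to 1.18). TMEM99, whose span overlaps it, was at 20.2 and 30.1 CPM in H1299 and at 40.7 and 32.3 in HCT116. The 2 genes thus went in opposite directions in HCT116 and in the same direction in H1299. KRT80 was at 16.4 and 13.3 CPM in H1299 and at 3.62 and 5.70 in HCT116. Its ratio was 0.811 (0.740 to 0.889) in H1299 and 1.57 (1.30 to 1.90) in HCT116. Of the H1299 libraries, KRT80 feature 1 was listed only in the treated one, with 100 counts. Without it the H1299 log2 ratio was -0.49, against -0.30 with it. KRT15 and KRT80 were the members with counts in all 4 libraries whose direction was opposite in the lines.

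**Figure D2:**
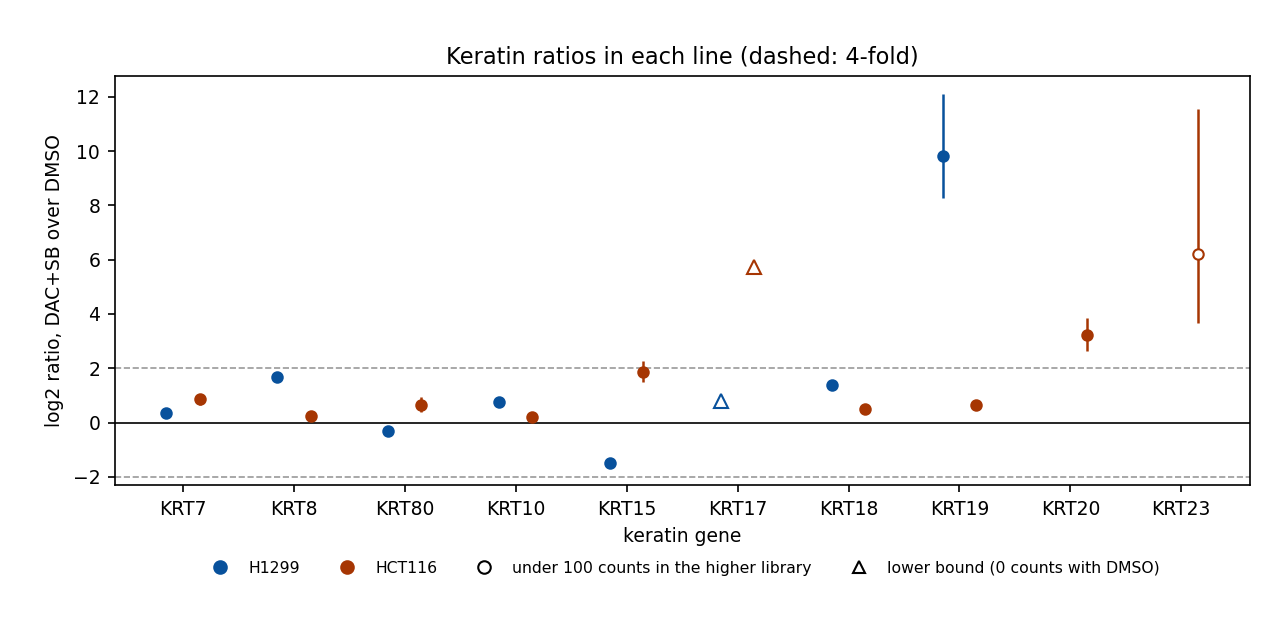
The log2 ratio of DAC+SB over DMSO for each keratin gene in H1299 and HCT116, with exact 95% counting intervals and dashed lines at 4-fold. Open circles had under 100 counts in the higher library, triangles are lower bounds, and genes at or under 3 counts in both libraries of a line are not drawn. KRT19 in H1299 stands highest at 9.83, and KRT15 lies below 0 in H1299 and above it in HCT116.

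Read over the list, 7 of the 10 members had at least 100 counts in the higher library in H1299 and 9 in HCT116. At least 4-fold higher with DAC+SB were 1 member in H1299 (KRT19), against 11.0% of all 14610 genes that met the minimum, and 2 in HCT116 (KRT17 and KRT20), against 9.63% of 13539 genes. None was at least 4-fold lower, against 0.349% and 3.69% of all genes. At 2-fold, 3 members were higher and 1 lower in H1299 (KRT8, KRT18 and KRT19, and KRT15), against 18.3% and 7.34% of all genes. In HCT116 3 were higher and 0 lower (KRT15, KRT17 and KRT20), against 16.2% and 20.0%. The median log2 ratio over the members was 0.75 in H1299 and 0.66 in HCT116, where the median over all genes was -0.07 and -0.23. Set among the genes of its own line that met the minimum, the KRT19 ratio in H1299 was above those of 99.9%, that of KRT8 above 87.2% and that of KRT18 above 85.5%. KRT15 in H1299 stood near the other end, above 1.70%, and KRT80 above 36.5%. In HCT116 KRT17 stood above 95.1%, KRT20 above 93.1% and KRT15 above 89.9%, and the remaining 6 members there stood above 66.7% to 81.9%. Members that met the minimum through the treated library alone, such as KRT17, had to be higher, and the choice of members was made with earlier results of these data known, so these counts and medians are descriptions. KRT17 stood exactly at the minimum of 100 counts in HCT116. Without cells above 25% mitochondrial counts, without the 5% of cells with most counts, or without numbered features listed in 1 library only, it did not reach the minimum and the HCT116 count was 1. The count was 3 when ratios were centred on the median of all genes, with KRT15 at 2.09 on the log2 scale, and also 3 with a count minimum of 10 or of 1.

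Compared at the same treatment, the lines differed by at least 4-fold in 3 of 7 members with DMSO. KRT19 was higher in HCT116, as were 8.11% of all genes compared, and KRT15 (21.5-fold) and KRT80 (4.53-fold) were higher in H1299, as were 9.92%. With DAC+SB 3 of 9 members were at least 4-fold higher in HCT116, against 4.65% of all genes, and 0 in H1299, against 8.97%. These 3 were KRT19, KRT17 (32.1-fold, 13.3 to 101) and KRT20 (at least 90.3-fold, if no unlisted feature of it had counts in H1299). KRT17 and KRT20, with 5 and 0 counts in treated H1299, met the count minimum through the HCT116 library alone. Both thus had to be higher in HCT116, and KRT17 stood exactly at the minimum. The 3 of 9 is therefore a description. KRT18 was 2.08-fold higher in treated H1299 than in treated HCT116, where with DMSO the lines had differed by 1.11-fold.

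Since keratins work in type I and type II pairs, the balance of the types was followed across the libraries. The counts were not scaled to length, so only changes between libraries can be read. The 3 type II members had 0.363 (0.354 to 0.373) counts per count of the 7 type I members in DMSO-treated H1299 and 0.408 (0.401 to 0.414) after DAC+SB. In HCT116 the value went from 0.350 (0.343 to 0.357) to 0.302 (0.295 to 0.309). The balance thus moved by less than 1.5 times in either line, upward in H1299 and downward in HCT116. For the KRT8 and KRT18 pair alone the ratio went from 0.380 (0.369 to 0.391) to 0.455 (0.447 to 0.463) in H1299 and from 0.838 (0.818 to 0.858) to 0.706 (0.687 to 0.725) in HCT116. It was higher in HCT116 than in H1299 under both treatments.

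The deposited table splits a gene into a feature without a number and numbered features, whose positions and meaning are not stated in the sources used here. A numbered feature is listed in a library only from 10 counts, and a feature without a number from 1. The features of a keratin gene did not always move together. In H1299 KRT8 feature 1 went from 897 to 6157 counts (2.83 as a log2 ratio), while KRT8 feature 2 had 2050 and 2054 counts (0.05). Feature 2 therefore held 32.8% of H1299 KRT8 counts with DMSO and 10.7% with DAC+SB. It was not listed in either HCT116 library, where feature 1 held 45.4% and 44.6%.

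KRT18 feature 1 had a higher ratio than the rest of the gene in both lines. Its log2 ratio was 1.67 in H1299, against 0.96 for the counts without a number. In HCT116 it was 0.97, from 8442 to 10266 counts, while the counts without a number went from 5917 to 2372, a log2 ratio of -0.63. KRT7 split the other way in H1299, where feature 1 went from 173 to 74 counts (-1.18) and the counts without a number from 275 to 475 (0.84). In HCT116 both parts of KRT7 were higher, at 0.65 and 1.01. KRT10 feature 1 was higher in H1299 (2008 to 4116 counts, 1.08), while the rest of KRT10 was at -0.21. In HCT116 the order was reversed, with KRT10 feature 1 at 0.05 and the rest at 0.56. Both parts of KRT15 were lower by nearly the same ratio in H1299 (-1.52 and -1.45) and higher in HCT116 (2.59 and 1.69, from 12 and 71 DMSO counts).

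**Figure D3:**
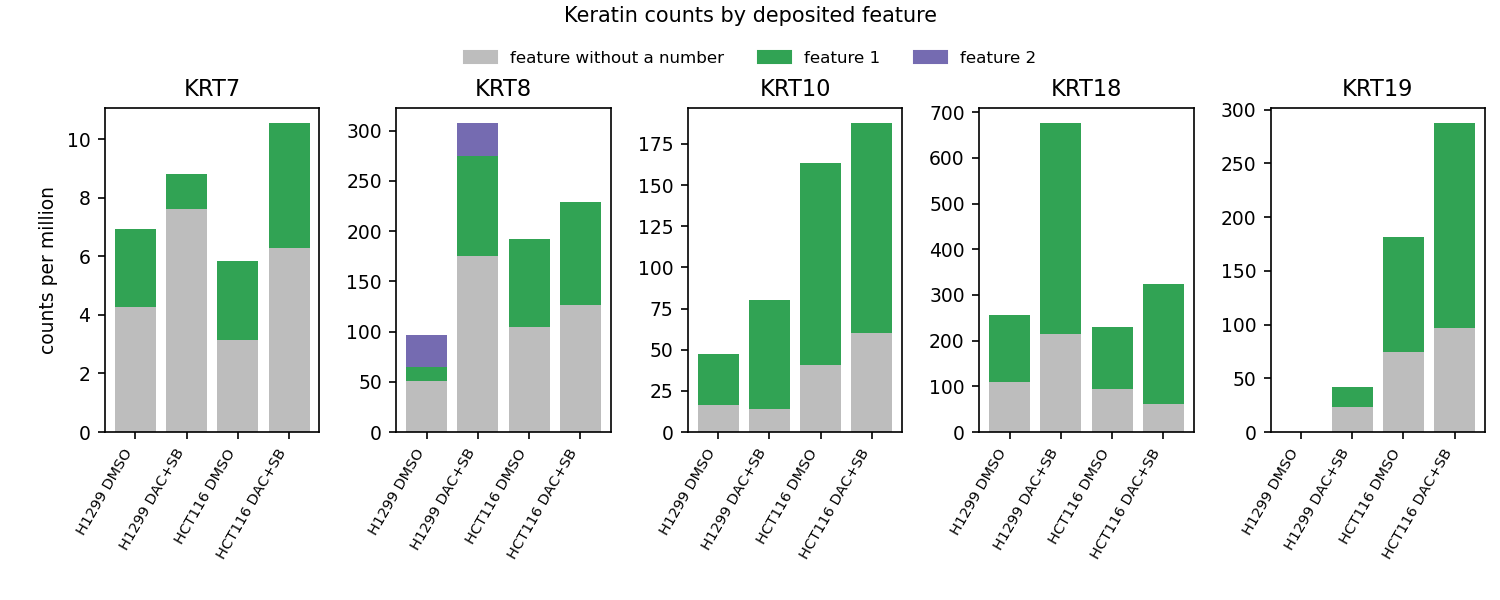
CPM of KRT7, KRT8, KRT10, KRT18 and KRT19 in the 4 libraries, stacked by deposited feature, each panel on its own axis from 0. The KRT8 feature 2 block has nearly the same height in both H1299 libraries (log2 ratio 0.05) and is absent from the HCT116 bars.

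The share of cells with a keratin count was compared after each cell was thinned at random to 3300 counts, which left out 402 shallower HCT116 DAC+SB cells and none of the other libraries. KRT18 was found in 40.7% (39.1 to 42.3) of H1299 DMSO and 68.5% (67.0 to 70.0) of H1299 DAC+SB cells, and in 46.4% and 55.8% of HCT116 cells. KRT8 was found in 22.2% and 51.9% of H1299 cells and in 40.8% and 46.1% of HCT116 cells. KRT19 was found in 0 of 3578 H1299 DMSO cells, which allows a share of up to 0.0838% (3 cells of the total; the exact 95% upper limit is 0.103%) with a count at this thinned depth, and in 412 of 3726 H1299 DAC+SB cells, or 11.1% (10.1 to 12.1). In HCT116 its shares were 39.1% and 46.1%. Without thinning, KRT19 was found in 0.0559% of H1299 DMSO, 33.4% of H1299 DAC+SB, 79.9% of HCT116 DMSO and 67.4% of HCT116 DAC+SB cells, at median depths of 17369.5, 15784.5, 16257.5 and 8449 counts. The unthinned HCT116 shares run against the CPM, and no order is read from them. H1299 DMSO cells, nearly without KRT19, are a separate library, so the share that free RNA gives within the treated H1299 library was not measured.

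The shares of the other members ranged from 0% to that of KRT10 in HCT116. KRT15 went from 8.27% to 2.93% of H1299 cells and from 0.301% to 1.43% of HCT116 cells. KRT10 was found in 14.4% and 21.7% of H1299 cells and in 40.7% and 40.4% of HCT116 cells. KRT7 lay between 1.50% and 3.19% and KRT80 between 1.07% and 5.51% in the 4 libraries. KRT17, KRT20 and KRT23 reached 0.815%, 1.22% and 0.331% of treated HCT116 cells, and each was in at most 3 thinned cells of any other library.

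**Figure D4:**
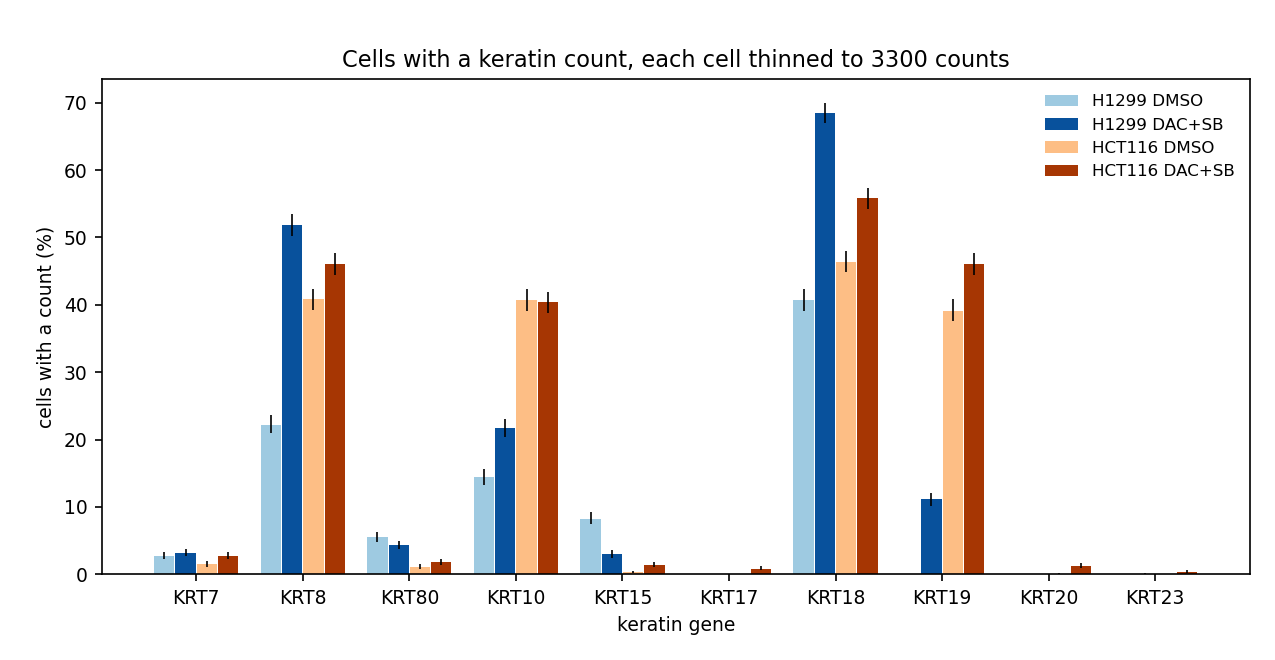
Percentage of cells with at least 1 count of each keratin gene in the 4 libraries after thinning every cell to 3300 counts, with exact 95% binomial intervals. KRT8 and KRT18 bars are 51.9% and 68.5% in treated H1299, the highest for these genes, and KRT19 has no bar in H1299 DMSO.

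Of the members, the ratio of variance to mean across thinned cells was highest for KRT18 in H1299. The variance of its thinned counts was 2.73 times the mean in H1299 DMSO and 4.0 times in H1299 DAC+SB, against 1.41 and 1.97 in HCT116. A value of 1 is that of Poisson counts. At an equal relative spread the ratio rises with the mean. The KRT18 mean was 0.802 and 1.97 counts per thinned cell in H1299 (DMSO first) and 0.731 and 1.09 in HCT116. Genes and libraries are therefore not ordered by unevenness here. In H1299 DMSO the tenth of cells with most KRT18 held 51.6% of its thinned counts, and in H1299 DAC+SB 42.4%, against 40.2% and 40.5% in HCT116. KRT19 had ratios of 1.58 and 2.60 in HCT116 and 1.40 in treated H1299, whereas KRT10 stayed between 1.06 and 1.18 in the 4 libraries. The KRT19 means were 0.598, 0.960 and 0.137 counts per thinned cell in that order.

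Across thinned cells of 1 library, KRT8 was the gene most like KRT18, the member with most counts, in 3 of the 4 libraries. Its Pearson correlation with KRT18 was 0.400 in H1299 DAC+SB (3726 cells, 660 genes compared), 0.149 in HCT116 DMSO (3658 cells, 715 genes) and 0.247 in HCT116 DAC+SB (3925 cells, 585 genes). Spearman correlations were 0.257, 0.103 and 0.137. KRT19 was at 0.213 in HCT116 DAC+SB and at 0.0751 in HCT116 DMSO. KRT10 was at -0.0233 and 0.00632 in the HCT116 libraries, DMSO first. In H1299 DMSO KRT8 fell below the mean of 0.5 counts per cell that was required, and the genes most like KRT18 were RPS19, SNRPD2, RPL36, PDCD5 and RPS16, at 0.240 to 0.214. After KRT8, the next in H1299 DAC+SB were TIMP1 (0.273), GAPDH (0.263), RPL36 and PFDN5, and in HCT116 DMSO GAPDH (0.120), S100A6, HSP90AB1 and TPI1. In HCT116 DAC+SB, GAPDH (0.246) preceded KRT19, and CKB (0.202) and LGALS1 (0.147) followed. These cells share a library and a total, and thinned KRT18 still had Spearman correlations of 0.150 and 0.198 with the original cell total in the H1299 libraries, and of -0.201 and -0.224 with the mitochondrial share. The part of cell total and mitochondrial share in these correlations was not tested. Nor was that of reads in the overlap of KRT8 and KRT18, which cannot be assigned with certainty.

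Beyond the 10 members, 45 further functional keratin genes were followed, 22 of type I (21 in the table) and 23 of type II (22 in the table), nearly all of them at very low levels. They include the epidermal KRT1, KRT5 and KRT14 and the hair keratins. In H1299 the type I genes summed to 8 counts with DMSO and 113 with DAC+SB, a ratio of 14.6 (7.16 to 34.6), and the type II genes to 6 and 116, a ratio of 20.0 (8.91 to 55.6). In HCT116 the sums were 53 and 442 (13.4, 10.1 to 18.2) and 31 and 466 (24.2, 16.8 to 36.0). No ratio of equally low genes was set beside these sums. Unlisted numbered features may hold further counts of genes this low, which the intervals do not cover. Only KRT81, a hair keratin, reached 100 counts, in HCT116, with 11 counts under DMSO and 227 under DAC+SB, or 5.05 (4.19 to 6.08) as a log2 ratio. In H1299 KRT81 had 0 and 67 counts, at least 23.1-fold higher on the floor of 3 counts, if no unlisted feature of it had counts with DMSO.

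When the libraries were thinned to 38927267 counts, 11 of the 55 functional keratin genes had a count in H1299 with DMSO and 32 with DAC+SB, and 26 and 51 in HCT116. As shares these were 20.0% and 58.2%, and 47.3% and 92.7%. Of all 40877 names of 1 gene, 64.0% and 80.3% had a count in the H1299 libraries and 63.9% and 83.8% in those of HCT116. All of these names have a count somewhere in the table, whereas the keratins were listed by name. More keratin genes were thus detected with DAC+SB in both lines, and so were more genes of any kind.

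**Figure D5:**
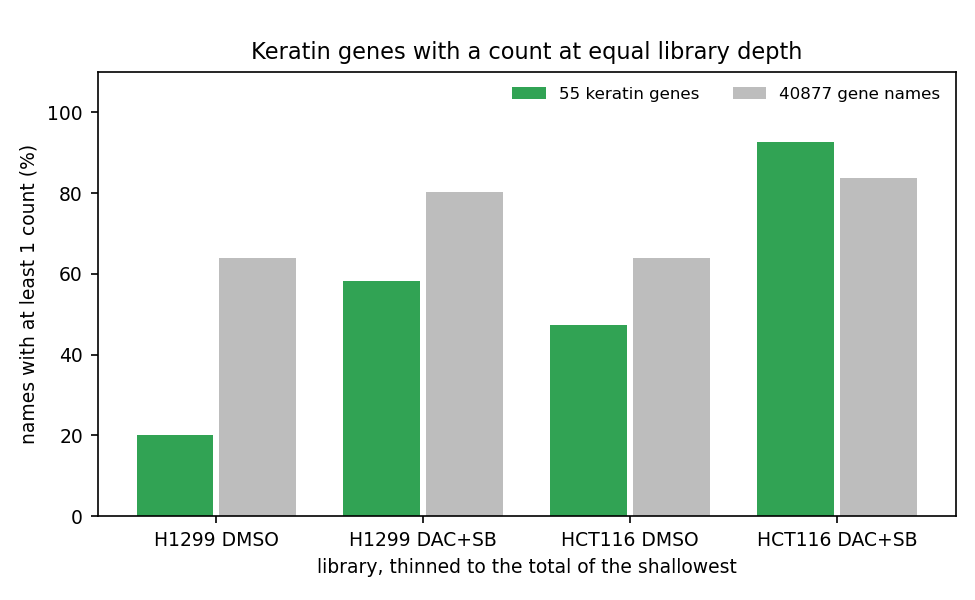
Percentage of 55 functional keratin genes and of 40877 gene names with at least 1 count in each library, all libraries thinned to the same total. The keratin bars are 20.0% and 58.2% in H1299 and 47.3% and 92.7% in HCT116, and the bars of all names are also higher with DAC+SB.

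Other intermediate filament proteins were set beside the keratins. Of 15 genes, 13 reached 100 counts in H1299, where 5 were at least 4-fold higher and 0 lower, and 14 in HCT116, where 6 were higher and 1 lower. Over all genes 11.0% were higher and 0.349% lower in H1299, and 9.63% and 3.69% in HCT116. All 5 in H1299, and NEFH, NEFM, INA and NEFL in HCT116, met the minimum through the treated library alone. They thus had to be higher, and these counts are descriptions. VIM, whose protein forms the filaments of mesenchymal cells, was lower in H1299, at -0.99 on the log2 scale, and higher in HCT116, at 2.49 (2.44 to 2.55). Among the genes that reached 100 counts, the highest in H1299 were the muscle filament gene DES (8.12, 5.63 to 13.43, from 1 DMSO count), the progenitor filament gene NES (7.11) and the neuronal PRPH (5.40) and NEFM (4.66). In HCT116 the highest of them were the neuronal NEFH (11.24, 9.38 to 14.28, from 2 DMSO counts) and, each with 0 DMSO counts and thus as bounds, NEFM (at least 9.96), INA (at least 8.46) and NEFL (at least 7.26). LMNB1, a nuclear lamin, was the gene at least 4-fold lower in HCT116, at -2.35.

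Genes whose proteins anchor keratins at desmosomes or link them to other structures were followed next. Of 17 genes, 13 reached 100 counts in H1299, of which 4 were at least 4-fold higher and 0 lower: EVPL (7.47 on the log2 scale, 4.97 to 12.78, from 1 DMSO count), EPPK1 (at least 5.57), JUP (4.08) and DSP (2.67), which encode envoplakin, epiplakin, plakoglobin and desmoplakin. The EPPK1 bound holds only if no unlisted feature of it had counts with DMSO. In HCT116 14 reached 100 counts, of which 0 were higher and 4 lower: PKP3 (-2.72), FAM83H (-2.43), DSC2 (-2.17) and DSG2 (-2.12). The shares over all genes were 11.0% higher and 0.349% lower in H1299 and 9.63% and 3.69% in HCT116. EVPL, EPPK1 and JUP met the minimum in H1299 through the treated library alone. They thus had to be higher, and these counts are descriptions. The median log2 ratio over the list was 0.44 in H1299 and -1.13 in HCT116, against -0.07 and -0.23 over all genes, with genes at 0 set to their bound. PLEC, the large linker plectin, was at -1.33 and -0.61. The summed level of the list was lower with DAC+SB in both lines, 656 and 447 CPM in H1299 and 775 and 446 in HCT116. In H1299 PLEC (345 and 137 CPM) and DST (181 and 105 CPM) held most of each sum. The H1299 sum thus mainly follows PLEC and DST, while the median log2 ratio over the list there was 0.44.

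Among 20 transcription and splicing factors linked to keratin expression or epithelial state, 9 reached 100 counts in H1299 and 13 in HCT116. At least 4-fold higher were TP63, the basal epithelial regulator, and ESRP1, an epithelial splicing factor, in H1299, with log2 ratios of 9.23 (7.37 to 12.27, from 2 DMSO counts) and 4.97. In HCT116 TP63 (7.85, 5.34 to 13.16, from 1 DMSO count), TFAP2C (2.28) and ELF3 (2.03) were higher and ESRP1 (-2.38) was lower. These were 2 of 9 genes in H1299, and 3 higher and 1 lower of 13 in HCT116, against 11.0% higher over all genes in H1299, and 9.63% higher and 3.69% lower over all genes in HCT116. TP63 in both lines, ESRP1 in H1299 and TFAP2C in HCT116 met the minimum through the treated library alone. They thus had to be higher, and these counts are descriptions. ESRP1 had opposite directions in the lines. The median log2 ratio of this list was -0.14 in H1299 and 0.03 in HCT116.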

How the data were processed

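Deposited by the authors were 2 tables of raw counts per feature and cell, 1 of genes and 1 of transposable elements. The submitters' processing notes name STAR, CASAVA, GRCh38 and hg38. The counting tool, the annotation, the cell filter and whether values are counts of unique molecular identifiers are not stated in the sources used here. Cells were assigned to libraries by the ending of the cell name. Every cell was used and no doublet caller was run. Counts were summed per gene name (text before the first bar) and library and divided by gene plus TE counts. Of the names, 2419 join several genes, and 0 of these hold a member. Backgrounds cover genes of 1 name whose higher library had 100 counts or more. A library at 0 was set to 3 counts, and each bound made in this way holds only if no unlisted numbered feature had counts there. Members and lists were chosen with earlier results of these data known. All members are named, as are up to 4 genes of each list past 4-fold in a line, and the 5 genes most like KRT18. The summed HCT116 marker list and 1 of its genes are not reported here. Genes named beyond this rule (KRT8P12, TMEM99, VIM, PLEC, DST and the markers) were chosen after their values were seen.

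Intervals are exact Poisson for levels, Clopper-Pearson for shares, conditional binomial for ratios, and normal on the log scale for differences between lines. No test was made, since each group is 1 library. Ratio functions were tested on simulated data. Computations used Python 3.11.15, numpy 2.4.6, scipy 1.17.1, pandas 2.3.3 and BLAST 2.17.0. The alternatives were 2 other denominators, centring on the median of all genes, numbered features listed in both libraries of a line, joined names added, fewer cells, means over cells, a 2-fold threshold and lower count minimums.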

Additional observations from a re-analysis of the deposited data

Results flagged for a closer look

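KRT15 and KRT80 had ratios of opposite direction in the lines, with counting intervals clear of no change in each. For KRT15 the H1299 minus the HCT116 log2 ratio was -3.35, from -1.49 in H1299 and 1.86 in HCT116. For KRT80 it was -0.96, from -0.30 and 0.65. With 1 library per group the differences between the lines were not tested.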

How the results depend on the processing

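Over 8 alternatives, 0 of the 144 recomputed log2 ratios of single members changed direction. Leaving out KRT17, whose ratios are bounds with no interval, 107 of 128 stayed within the counting interval of the reported value and 21 did not. Both tallies include the addition of joined names, which could change no value. The KRT17 bounds, with 0 DMSO counts, could not change direction. The 2 other denominators and the centring shift all ratios of a line by 1 constant. These shifts were upward and smaller in size than the only negative ratios (-0.30 and -1.49, in H1299). They could thus reverse no value, so the tally of directions rests on the remaining alternatives. The widest ranges were those of KRT23 in HCT116 (4.48 to 7.64) and KRT17 in HCT116 (4.69 to 5.98). The number of members at least 4-fold higher in H1299 was 1, or 3 with a 2-fold threshold, and the number lower was 0, or 1 with that threshold. In HCT116 the number higher was 2, or 1 with numbered features only where listed in both libraries, without the 5% of cells with most counts, or without cells above 25% mitochondrial counts. In each of these KRT17, at 100 counts, fell below the count minimum. The number was 3 with centring on the median of all genes, with a 2-fold threshold and with a count minimum of 10 or 1.

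Centring on the median of all tested genes gave a median log2 ratio over the members of 0.82 in H1299 and 0.89 in HCT116. The HCT116 median was 0.74 with gene counts only in the denominator, 0.72 without the 5% of cells with most counts and 0.71 as a mean over cells. The summed CPM was 664, 1672, 1221 and 1670 in the 4 libraries (H1299 first, DMSO before DAC+SB) with a denominator without mitochondrially encoded and ribosomal protein genes. With gene counts only it was 1174 and 1120 with DAC+SB in H1299 and HCT116. Without the 5% of cells with most counts it was 429, 1077 and 764 in H1299 DMSO, H1299 DAC+SB and HCT116 DMSO, and as a mean over cells 427, 1045 and 762. Without cells above 25% mitochondrial counts it was 793 and 1074 in HCT116, and with numbered features listed in both libraries 1117 in H1299 DAC+SB. The type II over type I count ratio was 0.374, 0.418 and 0.342 in H1299 DMSO, H1299 DAC+SB and HCT116 DMSO without the 5% of cells with most counts. As a mean over cells it was 0.378, 0.423, 0.342 and 0.313 in the 4 libraries, and with numbered features listed in both libraries 0.415 in H1299 DAC+SB. Where a value moved, the cause was not tested. Joined names hold no member, so adding them moved nothing. No paired analysis was possible because each group is 1 library.

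In H1299 KRT17, KRT20 and KRT23 had 5 counts or fewer in each library, so their ratios there are bounds or cannot be given. Numbered features under 10 counts are not listed.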

Other observations

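All 5 genes most like KRT18 across H1299 DMSO cells lie on chromosome 19, whereas KRT18 lies on chromosome 12. Of the 737 compared genes with a GENCODE position there, 60 (8.14%) are on chromosome 19. Their median correlation with KRT18 was 0.0491, with 49 of 60 above 0, against -0.000538 for genes on other chromosomes. Chromosome 19 was singled out because the 5 genes lie there, and they are included in its median. In the same library the median was 0.0412 on chromosome 5 (30 of 37 genes above 0), 0.0445 over 7 genes on chromosome 21, and -0.0885 over the 12 mitochondrially encoded genes, with 0 above 0. In H1299 DAC+SB the medians were 0.0600 for 53 chromosome 19 genes (38 above 0) and 0.0100 for the rest. There too other chromosomes stood apart, with 0.0937 over 4 genes on chromosome 10, 0.0414 on chromosome 5 (31 of 34 above 0) and -0.134 over the mitochondrially encoded genes. In HCT116 they were -0.00597 for 62 genes and 0.00403 for the rest with DMSO, and 0.00822 for 49 genes and -0.000672 for the rest with DAC+SB. These correlations are weak, cells share their library, and no explanation was tested.

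KRT222, a keratin-like gene on the type I list chosen here after its values were seen, ran against the other low keratins in HCT116. It had 29 counts with DMSO and 6 with DAC+SB, a log2 ratio of -1.59 (-3.15 to -0.29). The name that joins it with another gene had 384 and 92.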
